A study of Homo sapiens with 24 samples.

Results

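The genes described here are the 35 human genes of the microRNA processing and silencing machinery, chosen by name out of the 60605 genes in the deposited count tables. They run from the nuclear enzymes that cut microRNA hairpins out of primary transcripts to the cytoplasmic proteins that silence target mRNAs, and all 35 were among the 15869 genes with enough reads to be tested. The libraries came from SBC-3, an established human small cell lung cancer cell line, and held poly(A)-selected RNA from cells harvested 72 h after reverse transfection with 10 nM of an siRNA or an antisense oligonucleotide (ASO). The study asked how the nuclear RNA-binding protein SFPQ acts on microRNA production, and whether that depends on paraspeckles.

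The 24 libraries formed 8 groups of 3. SFPQ was silenced with either of 2 siRNAs in the groups siSFPQ-2 and siSFPQ-3, and NONO likewise in siNONO-3 and siNONO-4. All 4 were set against the control siRNA group siCtrl. The groups ASO-NEAT1-1047 and ASO-NEAT1-1473 received ASOs directed at the noncoding RNA NEAT1 and were set against the control ASO group ASO-Ctrl. All groups were transient transfections of 1 cell line, and whether replicate libraries derive from independent cultures is not stated, so the p-values reflect only library-to-library spread, which may be technical.

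MicroRNAs are made in steps. The Microprocessor, DROSHA with its RNA-binding partner DGCR8, cuts a hairpin precursor from the primary transcript in the nucleus, exportin-5 (XPO5) carries it to the cytoplasm with the GTPase RAN, and DICER1 trims it to a duplex with TARBP2 or PRKRA. An Argonaute protein then keeps a single strand and, through GW182 scaffolds of the TNRC6 family, brings the CCR4-NOT deadenylase to mRNAs that pair with the microRNA seed. SFPQ and NONO are related proteins that pair with each other, and both are core proteins of paraspeckles, nuclear bodies built on NEAT1.

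Total counts per library ranged from 4243196 to 14886353. The 6 siSFPQ libraries were all shallower than the siCtrl libraries, at 4243196 to 9747514 counts, against 9999025 to 13525528 in siCtrl, and the mitochondrial share of counts was 9.59 to 11.6% in siSFPQ and 7.63 to 9.07% in siCtrl. Normalised read counts are in CPM, the count scaled to a common library size with TMM factors (edgeR), and levels compared between genes are in CPM per kb of exon. Exon length took in all annotated exon blocks of a gene, so the order of levels and the shares within families depend on the annotation. Of 7 neuroendocrine markers of small cell lung cancer, the 4 genes INSM1, CHGA, NCAM1 and UCHL1 stayed under 1 CPM in every library, and YAP1 stood at 294 to 504 CPM, so most of these neuroendocrine markers were near or at 0 in these cells. The summed level of the 7 markers was 66.4 to 105 CPM in siSFPQ libraries, against 44.7 to 53.3 CPM in siCtrl libraries. SYP was higher, at 34.2 to 71.6 CPM in siSFPQ against 14.2 to 21.7 CPM in siCtrl, and ENO2, at 29.8 to 43.4 against 24.5 to 28.5 CPM, while NEUROD1 was lower, at 0.61 to 2.94 CPM in siSFPQ against 4.56 to 4.70 CPM in siCtrl. POU2F3, a marker of the tuft-like variant, was at most 0.46 CPM in any library. The part of depth, mitochondrial share and these markers in the differences given here was not tested. SFPQ stood at 153 to 239 CPM in siSFPQ libraries, against 1191 to 1268 CPM in siCtrl libraries, a log2 fold change of -2.51 ± 0.09 (SE). NONO stood at 58.7 to 76.4 CPM in siNONO libraries, against 386 to 415 CPM in siCtrl libraries, a log2 fold change of -2.52 ± 0.07. NEAT1 stood at 181 to 331 CPM in libraries labelled ASO-NEAT1, against 216 to 387 CPM in ASO-Ctrl libraries, and its change was not called (log2 fold change -0.26 ± 0.20, adjusted p = 1). It was at 181 to 232 CPM in ASO-NEAT1-1473 and 244 to 331 CPM in ASO-NEAT1-1047, with log2 fold changes of -0.53 ± 0.24 (unadjusted p = 0.0408) and 0.0028 ± 0.24, each at an adjusted p of 1. Those libraries are therefore named by their label throughout. Poly(A)-selected RNA gives no measure of NEAT1 RNA without a poly(A) tail.

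DROSHA (chromosome 5, 31400494 to 31532196, minus strand, hg38) and DGCR8 (chromosome 22, 20080232 to 20111877, plus strand) are shown first by sequence, together with TENT2 (chromosome 5, 79612120 to 79688246, plus strand), the member with the highest positive fold change in siSFPQ libraries. The RefSeq table for GRCh38.p14 gave a promoter window, 250 bases before to 50 after the annotated start, for 30 of the 35 members. Capitals mark matches to the GC box GGGCGG, the CCAAT box CCAAT or the ETS motif CCGGAAG on either strand, and no 2 marked matches share a base.
DROSHA promoter, chr5:31532044-31532343, minus strand: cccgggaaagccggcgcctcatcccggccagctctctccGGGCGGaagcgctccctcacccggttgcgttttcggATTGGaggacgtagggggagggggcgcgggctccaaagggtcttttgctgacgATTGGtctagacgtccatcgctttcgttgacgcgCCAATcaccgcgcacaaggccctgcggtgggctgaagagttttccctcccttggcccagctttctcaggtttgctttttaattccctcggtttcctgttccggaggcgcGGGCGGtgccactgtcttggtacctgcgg
DGCR8 promoter, chr22:20079991-20080290, plus strand: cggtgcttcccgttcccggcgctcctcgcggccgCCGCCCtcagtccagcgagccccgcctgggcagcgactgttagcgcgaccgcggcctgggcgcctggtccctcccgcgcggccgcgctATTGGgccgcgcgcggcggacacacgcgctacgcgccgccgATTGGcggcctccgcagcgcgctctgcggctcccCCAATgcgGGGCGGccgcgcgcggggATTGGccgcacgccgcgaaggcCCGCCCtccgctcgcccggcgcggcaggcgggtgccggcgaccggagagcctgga
TENT2 promoter, chr5:79612191-79612490, plus strand: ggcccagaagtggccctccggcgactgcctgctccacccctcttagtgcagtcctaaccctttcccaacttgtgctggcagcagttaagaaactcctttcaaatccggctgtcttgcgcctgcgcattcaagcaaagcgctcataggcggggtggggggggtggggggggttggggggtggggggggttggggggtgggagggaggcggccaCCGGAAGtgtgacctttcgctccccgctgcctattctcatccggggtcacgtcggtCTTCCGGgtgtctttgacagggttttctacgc
The DROSHA window held 2 GC boxes and 3 CCAAT boxes, and the DGCR8 window held 3 GC boxes and 4 CCAAT boxes. The TENT2 window held neither of those and 2 ETS motifs. Over the 30 members with a window, 23 (76.7%) held a GC box, against 45.0% of all 35116 windows in the table, 10 (33.3%) held an ETS motif, against 10.3%, and 13 (43.3%) held a CCAAT box, against 34.6%. A TATA box, TATAAA, was found in 1 member window (3.3%), that of ADAR, against 11.5% of all windows. The YY1 motif AAGATGGC was found in 2 (6.7%), those of RAN and ERH, against 2.9%, and neither the NRF1 motif (1.2% of all windows) nor the E2F motif TTTCGCG (1.3%) was found in any. The median GC content was 68.3% in member windows and 58.7% in all windows.

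Members also carry microRNAs of their own. The DGCR8 gene holds hairpins inside exon blocks of the deposited annotation, and DGCR8 mRNA is known to be cut by the Microprocessor that its protein belongs to. Some mature forms from RefSeq are shown because they tie a member's own transcript to the pathway, with the seed (bases 2 to 8) in capitals. The list is not complete. Not shown are MIR3064 and MIR5047 inside exon blocks of DDX5, MIR3940 in KHSRP and hsa-miR-3173-3p in DICER1.
hsa-miR-3618, DGCR8: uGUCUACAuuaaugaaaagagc
hsa-miR-1306-5p, DGCR8: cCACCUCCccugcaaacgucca
hsa-miR-1306-3p, DGCR8: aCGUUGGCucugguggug
hsa-miR-3173-5p, DICER1: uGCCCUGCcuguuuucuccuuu
hsa-miR-562, DIS3L2: aAAGUAGCuguaccauuugc
No seed is shared among the forms shown. The gene entries for MIR3618 and MIR1306 had 0 counts in all 24 libraries together, and those for MIR3173 and MIR562 had 23 and 8. Poly(A) libraries do not capture mature microRNAs, so these entries do not measure their levels.

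The levels of the members spanned about 2 orders of magnitude in siCtrl. ERH, a small Microprocessor cofactor, was highest at 222 ± 20.3 CPM per kb (SD, n = 3), followed by ILF2 at 164 ± 18.2 and RAN at 143 ± 14.9, whose libraries overlapped with each other but not with ERH. DDX5 at 112 ± 3.18 and DDX17 at 97.8 ± 3.77 CPM per kb, the helicases that assist the Microprocessor, came next without overlap. The enzymes themselves lay in the middle, with DICER1 at 20.3 ± 1.15, DROSHA at 17.6 ± 0.517 and DGCR8 at 6.40 ± 0.443 CPM per kb, and AGO2 led the Argonautes at 24.3 ± 2.22 CPM per kb. DIS3L2 at 2.24 ± 0.271 and TNRC6C at 2.12 ± 0.108 CPM per kb were lowest and overlapped with each other. From TNRC6B down to ZSWIM8, each member overlapped the next in the order. This order rests on annotated exon length, which was 1.11 kb for ERH and 9.31 kb for DDX5. By CPM in siCtrl, DDX5 stood at 1041 ± 29.6 and ERH at 246 ± 22.5.

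**Figure D1:**
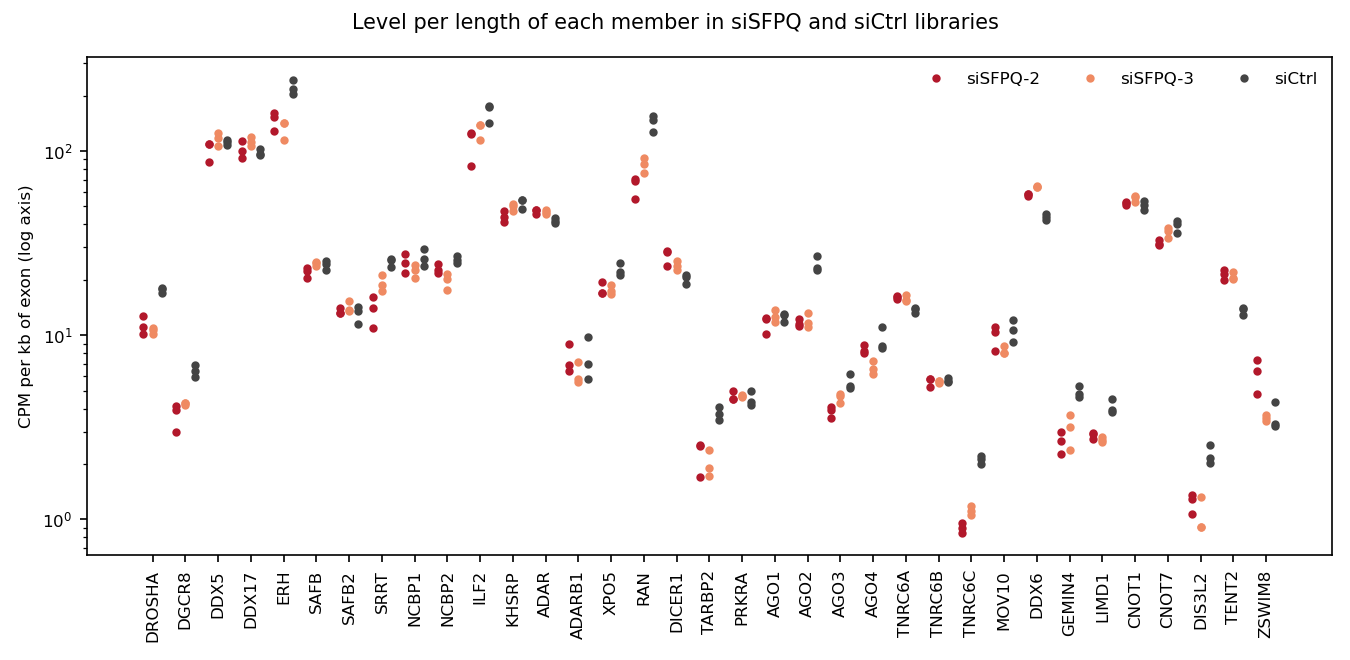
Level of each member in CPM per kb of exon (log axis) in the siSFPQ-2, siSFPQ-3 and siCtrl libraries, 1 point per library. ERH stood highest in siCtrl at 222 CPM per kb and TNRC6C lowest at 2.12 CPM per kb.

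Silencing SFPQ shifted most of the machinery, more often downward. In siSFPQ against siCtrl, 25 of the 35 members (71.4%) passed an adjusted p of 0.05, against 70.4% of all genes tested, so the share of members called was near the background. Of the members, 19 (54.3%) fell, against 35.8% of all genes, and 6 (17.1%) rose, against 34.7%. The changes were smaller than those of the transcriptome at large, with a median absolute log2 fold change of 0.34 over the members and 0.65 over all genes. These sets were not matched for read count, and 69 further pathway genes had a median of 0.35. Only AGO2 and TNRC6C passed the test with more than a 2-fold change, 2 members (5.71%) against 32.6% of all genes. In 20 members the 6 siSFPQ libraries lay wholly apart from the 3 siCtrl libraries, 15 below and 5 above. That total was near the 56.5% of all genes so separated, 28.1% below and 28.4% above. TMM scaling takes the bulk of genes as unchanged, and no total RNA per cell was measured, so all changes are relative to the other genes.

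**Figure D2:**
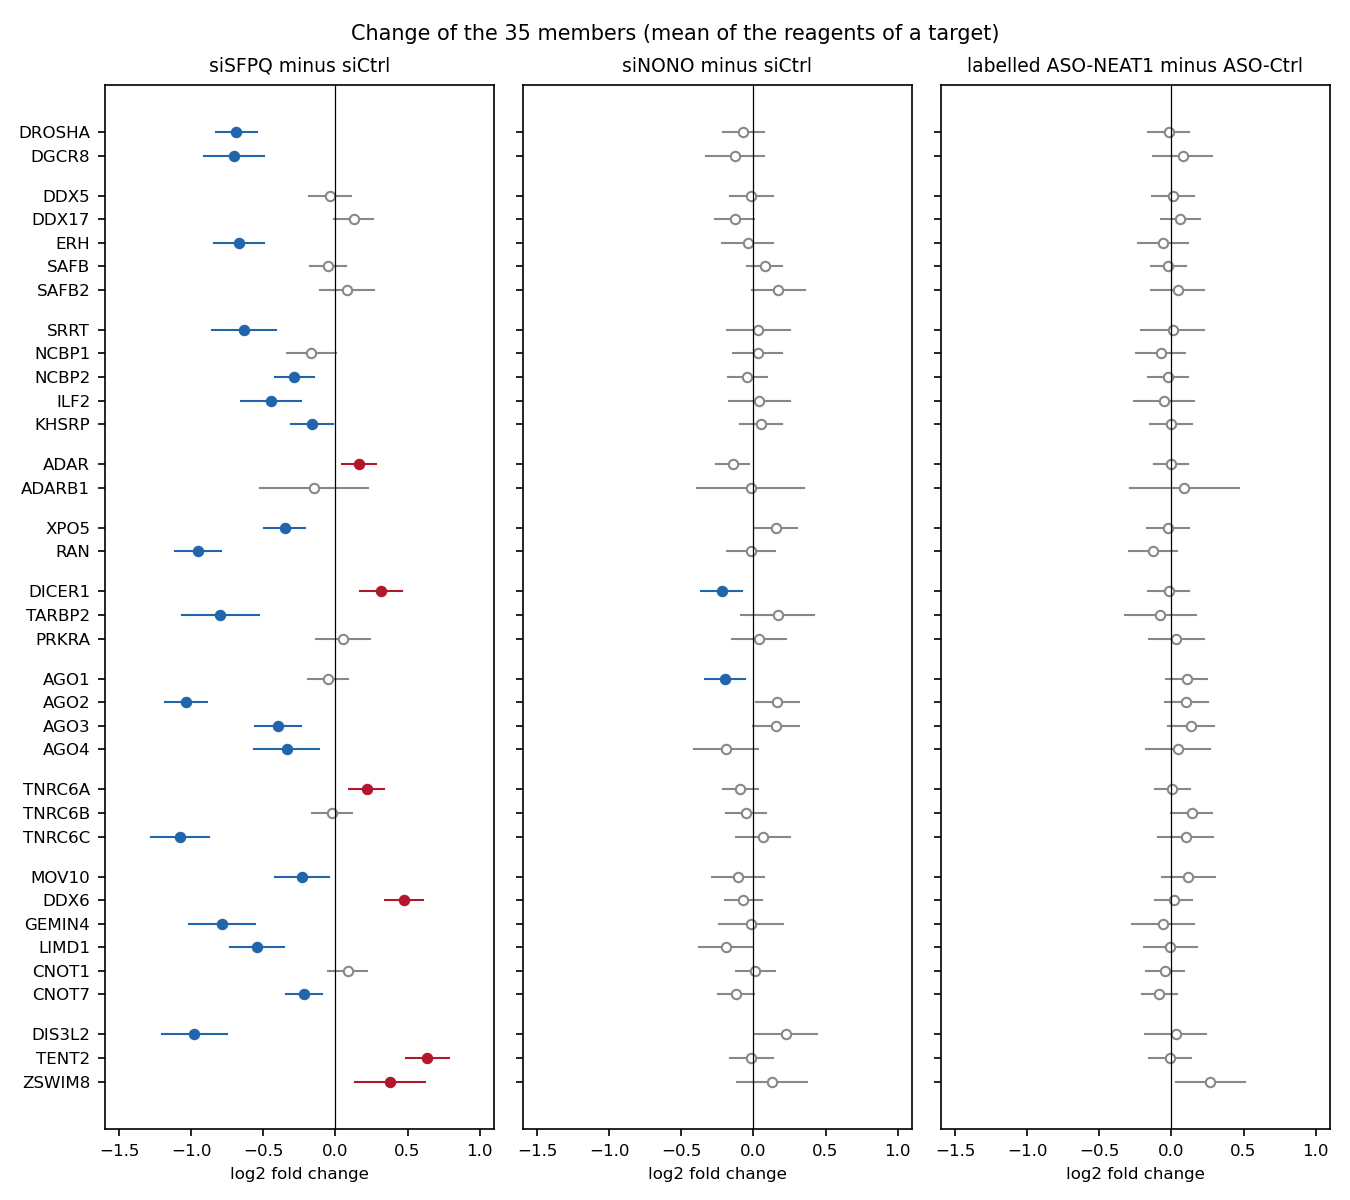
Log2 fold change of each member with its 95% interval, ordered by role from Microprocessor to turnover, for siSFPQ against siCtrl, siNONO against siCtrl, and libraries labelled ASO-NEAT1 against ASO-Ctrl. Filled points passed an adjusted p of 0.05 (red higher, blue lower), numbering 25, 2 and 0 of 35.

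Both Microprocessor subunits fell by about the same amount. DROSHA, the nuclease, had 79.2, 99.5 and 86.0 CPM in siSFPQ-2 and 85.3, 78.6 and 83.5 CPM in siSFPQ-3, against 140, 138 and 132 CPM in siCtrl. All 6 siSFPQ libraries were below all siCtrl libraries, a change of -0.69 ± 0.07 on the log2 scale (adjusted p = 1.18e-09). DGCR8 had 28.6, 30.3 and 21.9 CPM in siSFPQ-2 and 31.3, 31.4 and 30.5 CPM in siSFPQ-3, against 50.1, 46.8 and 43.6 CPM in siCtrl. These groups did not overlap either, and the log2 fold change was -0.71 ± 0.10 (adjusted p = 6.40e-07), although 9.6% of DGCR8's exonic bases are shared with other annotated genes. The ratio of DROSHA to DGCR8 in CPM per kb was 3.13 ± 0.547 in siSFPQ-2 and 2.50 ± 0.127 in siSFPQ-3, on either side of the 2.75 ± 0.114 in siCtrl (SD, n = 3 each).

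Among the 5 Microprocessor helpers, ERH alone passed the test, with a log2 fold change of -0.67 ± 0.09 (adjusted p = 8.38e-08). It stood at 127 to 178 CPM in siSFPQ libraries, against 227 to 271 CPM in siCtrl libraries. The DEAD-box helicases DDX5 and DDX17 had log2 fold changes of -0.04 ± 0.07 and 0.13 ± 0.07, and the scaffold attachment factors SAFB and SAFB2 had -0.05 ± 0.06 and 0.08 ± 0.09, none past the threshold. DDX17 (adjusted p = 0.091) was called higher in 4 of 15 alternatives, with DESeq2 (0.0199), with RLE factors (0.0373), with the replicate block (0.0392) and without siSFPQ-2 replicate 1 (0.0405). SAFB and SAFB2 start head to head on chromosome 19 with spans that overlap by 1012 bases, and the authors' treatment of reads that map to more than 1 place is not given in the sources used here, so close paralogs such as these are uncertain.

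Of the 5 nuclear RNA adaptors, 4 fell and none rose, in a comparison where 35.8% of all genes fell and 34.7% rose. SRRT (ARS2), which links the nuclear cap-binding complex to the Microprocessor, had a log2 fold change of -0.63 ± 0.11 (adjusted p = 1.04e-05). ILF2, part of a dimer that binds double-stranded RNA, had -0.44 ± 0.10, the cap-binding subunit NCBP2 had -0.28 ± 0.07, and KHSRP, which binds terminal loops of some precursors, had -0.16 ± 0.07. The adjusted p of KHSRP was 0.0425, and the call was lost with DESeq2 (0.101), with RLE factors (0.103), and without siCtrl replicate 1 or 2, siSFPQ-2 replicate 2 or siSFPQ-3 replicate 2 (0.0629 to 0.176). The larger cap-binding subunit NCBP1 had -0.17 ± 0.08 and was not called (adjusted p = 0.0765), but it was called lower in 6 of 15 alternatives, with upper quartile factors (0.0349), without the low-count filter (0.016), with the replicate block (0.0298), and without siCtrl replicate 3 (0.0232), siSFPQ-2 replicate 2 (0.0206) or siSFPQ-3 replicate 1 (0.0438). Of the A-to-I editing enzymes, ADAR rose by a log2 fold change of 0.16 ± 0.06 (adjusted p = 0.0119), which missed the threshold without the low-count filter (0.318), with the SFPQ and control libraries fitted alone (0.0938), and without siCtrl replicate 1 or 2 or siSFPQ-3 replicate 3 (0.0551 to 0.0618). ADARB1 was not called, at -0.15 ± 0.18.

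The export pair fell unequally. RAN, the GTPase that loads cargo onto XPO5, had 321, 330 and 256 CPM in siSFPQ-2 and 430, 399 and 354 CPM in siSFPQ-3, against 688, 725 and 591 CPM in siCtrl. The siSFPQ libraries lay wholly below siCtrl, and the log2 fold change was -0.95 ± 0.08 (adjusted p = 2.42e-11). RAN serves all RanGTP-dependent nuclear transport, and its 9 annotated pseudogenes held reads equal to 1.11% of its own. XPO5 had 144, 165 and 144 CPM in siSFPQ-2 and 160, 147 and 141 CPM in siSFPQ-3, against 180, 209 and 187 CPM in siCtrl. Its groups were also apart, with a smaller log2 fold change of -0.35 ± 0.07 (adjusted p = 7.15e-05).

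In the dicing step the enzyme and its partner moved in opposite directions. DICER1 had 300, 357 and 362 CPM in siSFPQ-2 and 302, 285 and 321 CPM in siSFPQ-3, against 241, 269 and 263 CPM in siCtrl. Every siSFPQ library was above every siCtrl library, and the log2 fold change was 0.31 ± 0.07 (adjusted p = 0.000285). TARBP2, which steadies DICER1 on its substrate and helps hand the product to Argonaute, had 10.4, 6.94 and 10.3 CPM in siSFPQ-2 and 7.75, 6.997 and 9.76 CPM in siSFPQ-3, against 15.3, 16.7 and 14.1 CPM in siCtrl. TARBP2 fell by 0.80 ± 0.13 on the log2 scale (adjusted p = 4.75e-06) from counts of 28 to 275 per library over all 24, the lowest of any member. PRKRA, the alternative partner, was not called, at 0.05 ± 0.09.

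The balance between the steps shifted with these changes. The ratio of DICER1 to DROSHA in CPM per kb was 2.37 ± 0.195 in siSFPQ-2 and 2.25 ± 0.096 in siSFPQ-3, against 1.16 ± 0.088 in siCtrl (SD, n = 3 each), with no overlap. The ratio of DICER1 to TARBP2 in CPM per kb was 12.4 ± 3.73 in siSFPQ-2 and 12.1 ± 1.33 in siSFPQ-3, against 5.43 ± 0.504 in siCtrl. These ratios restate the changes of their genes and were given no test of their own.

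**Figure D3:**
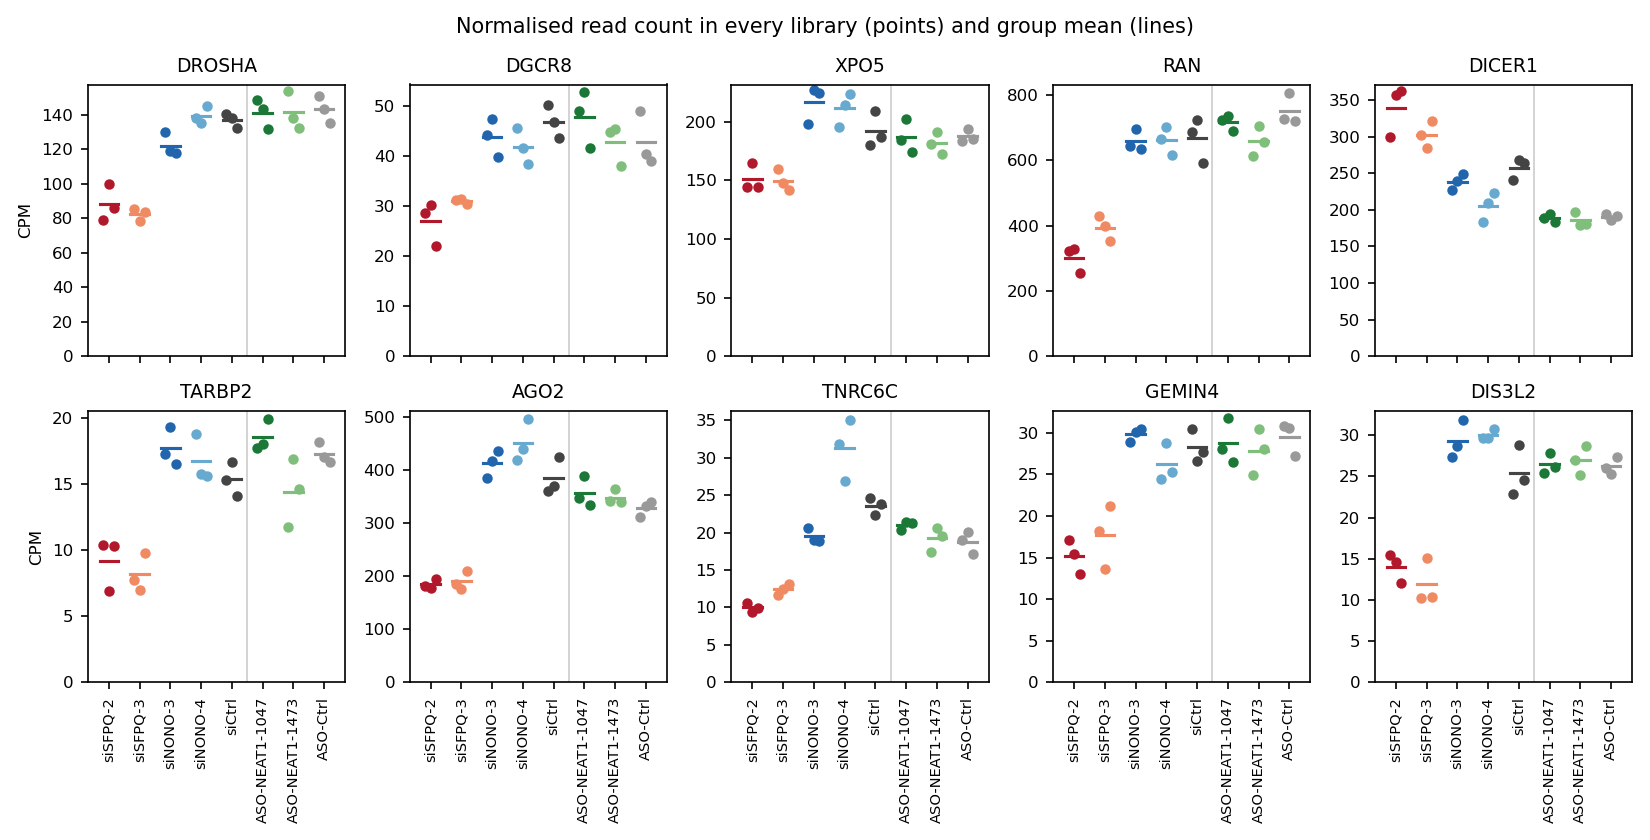
CPM of 10 members in every library (points, 3 per group) with the group mean (line); the grey line parts siRNA from ASO groups. DROSHA, DGCR8, XPO5, RAN, TARBP2, AGO2, TNRC6C, GEMIN4 and DIS3L2 were lower in all 6 siSFPQ libraries than in all 3 siCtrl libraries, and DICER1 was higher.

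Among the Argonautes, AGO2 carried most of the loss. AGO2, the Argonaute that can itself slice a fully paired target, had 181, 179 and 195 CPM in siSFPQ-2 and 185, 177 and 210 CPM in siSFPQ-3, against 360, 369 and 425 CPM in siCtrl. The groups did not overlap, and the log2 fold change was -1.03 ± 0.07 (adjusted p = 5.75e-13), with -1.06 and -1.01 under the separate siRNAs. AGO3 fell by 0.40 ± 0.08 (adjusted p = 4.77e-05) and AGO4 by 0.34 ± 0.11 (adjusted p = 0.00794) on the log2 scale, while AGO1 was not called, at -0.05 ± 0.07. The AGO4 call rested on siCtrl replicate 3 and was lost without it (adjusted p = 0.0928). Summed over the 4 genes, Argonaute mRNA was 35.5 ± 0.27 CPM per kb in siSFPQ-2 and 35.9 ± 1.20 in siSFPQ-3, against 51.8 ± 4.49 in siCtrl (SD, n = 3 each). The AGO2 share of that sum was 32.9 ± 1.81% in siSFPQ-2 and 33.4 ± 2.15% in siSFPQ-3, against 46.9 ± 0.48% in siCtrl, while the AGO1 share was 32.7 ± 3.29% and 35.3 ± 3.12%, against 24.3 ± 1.63%. AGO4, AGO1 and AGO3 lie in tandem on chromosome 1 between 35808016 and 36072500, and AGO4 lies 614.9 kb from the SFPQ gene. AGO2 is on chromosome 8.

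The GW182 scaffolds changed unequally. TNRC6C had 10.6, 9.42 and 9.97 CPM in siSFPQ-2 and 11.7, 12.4 and 13.1 CPM in siSFPQ-3, against 24.7, 22.3 and 23.8 CPM in siCtrl. The groups were far apart, and its log2 fold change of -1.08 ± 0.10 (adjusted p = 1.50e-10) was the most negative of the 35. TNRC6A rose by a log2 fold change of 0.22 ± 0.06 (adjusted p = 0.00213), a call that missed the threshold without the low-count filter (0.129), and TNRC6B was not called, at -0.02 ± 0.07. Summed GW182 mRNA was 22.6 ± 0.17 CPM per kb in siSFPQ-2 and 22.5 ± 0.78 in siSFPQ-3, against 21.5 ± 0.56 in siCtrl. The TNRC6C share was 3.99 ± 0.26% and 4.96 ± 0.17%, against 9.84 ± 0.28%. TNRC6C (chromosome 17, 77959240 to 78108835) shares 13.0% of its exonic bases with TMC6 on the opposite strand, and the strand setting of the counting is not given in the sources used here, so part of its count is uncertain.

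**Figure D4:**
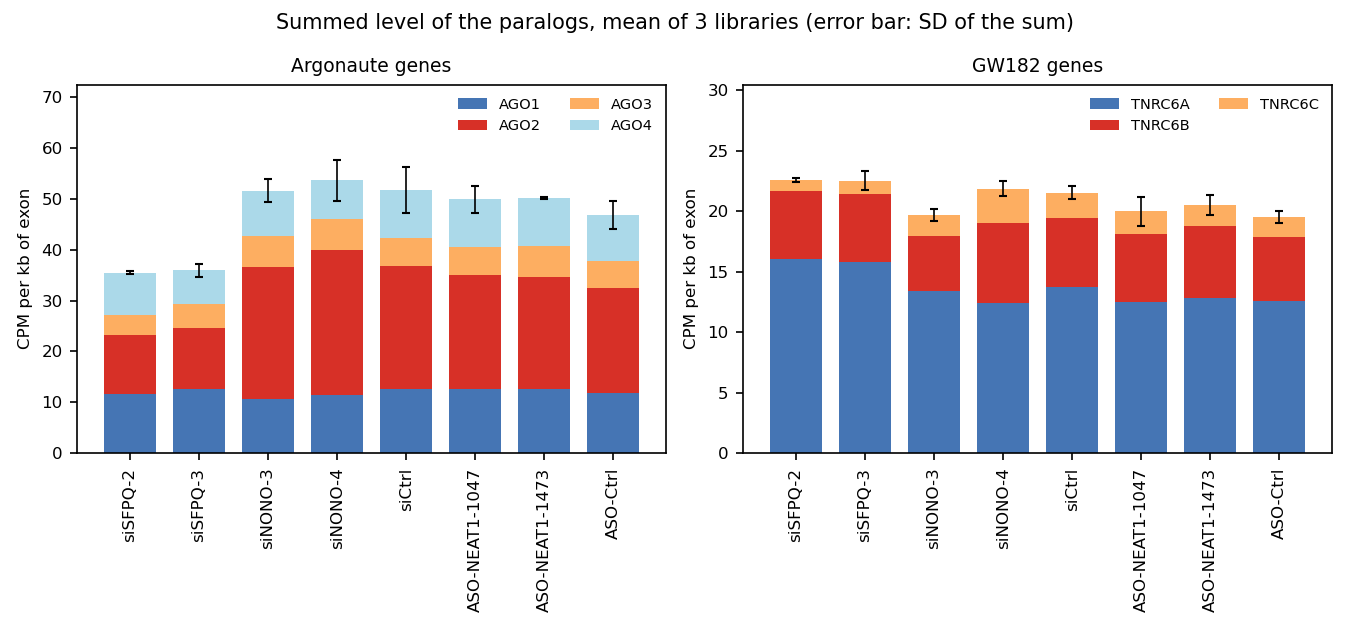
Summed CPM per kb of exon of the 4 Argonaute genes and the 3 GW182 genes in each group, stacked by gene, mean of 3 libraries with the SD of the sum. The Argonaute sum was 35.5 and 35.9 CPM per kb in the siSFPQ groups, against 51.8 in siCtrl, and the GW182 sums were 22.6 and 22.5, against 21.5.

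Of the 6 silencing partners, 4 fell and 1 rose, where 35.8% of all genes fell and 34.7% rose. GEMIN4, found with Argonaute and in the SMN complex, had 17.1, 15.4 and 13.0 CPM in siSFPQ-2 and 18.3, 13.6 and 21.2 CPM in siSFPQ-3, against 30.5, 26.6 and 27.7 CPM in siCtrl. Its groups did not overlap (log2 fold change -0.79 ± 0.11, adjusted p = 4.92e-07). LIMD1, which bridges Argonaute and translation factors, fell by 0.55 ± 0.09 on the log2 scale, although 24.9% of its exonic bases are shared with LIMD1-AS1 on the opposite strand. The helicase MOV10 fell by 0.23 ± 0.09, a call lost without siCtrl replicate 3 (adjusted p = 0.202), and the CCR4-NOT deadenylase subunit CNOT7 fell by 0.22 ± 0.06. CNOT1, the scaffold of CCR4-NOT, was not called, at 0.09 ± 0.07. DDX6, the helicase that CCR4-NOT recruits to repress translation, had 671, 672 and 653 CPM in siSFPQ-2 and 741, 734 and 732 CPM in siSFPQ-3, against 504, 523 and 481 CPM in siCtrl. All 6 libraries were above siCtrl, with a log2 fold change of 0.48 ± 0.06 (adjusted p = 1.73e-07).

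The turnover enzymes split. DIS3L2, the exonuclease that degrades uridylated precursors such as pre-let-7, had 15.5, 14.6 and 12.1 CPM in siSFPQ-2 and 10.3, 15.1 and 10.4 CPM in siSFPQ-3, against 22.9, 28.8 and 24.6 CPM in siCtrl. It fell by 0.98 ± 0.11 on the log2 scale (adjusted p = 8.50e-09) with no overlap. TENT2 (GLD-2), a terminal transferase that adds A to microRNA 3′ ends, had 142, 152 and 160 CPM in siSFPQ-2 and 144, 144 and 157 CPM in siSFPQ-3, against 98.7, 90.8 and 99.7 CPM in siCtrl. TENT2 rose by a log2 fold change of 0.64 ± 0.07 (adjusted p = 1.42e-08) with no overlap. ZSWIM8, the ubiquitin ligase adaptor that drives target-directed microRNA decay, averaged a log2 fold change of 0.38 ± 0.12 (adjusted p = 0.00605, and 0.0519 without siCtrl replicate 1), with 0.79 ± 0.13 under siSFPQ-2 and -0.03 ± 0.14 under siSFPQ-3.

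Neither gene span nor level ordered the changes closely. Of the 10 members whose genes span over 100 kb, 8 had negative fold changes, with a median log2 fold change of -0.47, and of the 25 shorter ones 17 did, with a median of -0.17. Spearman's rho across the 35 members was 0.097 between span and log2 fold change and 0.189 between the siCtrl level and log2 fold change.

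Each SFPQ siRNA was also set against siCtrl by itself. With siSFPQ-2 alone, 6 members rose and 16 fell, 62.9% of 35 against 64.9% of all genes, of which 32.4% rose and 32.4% fell. With siSFPQ-3 alone, 6 rose and 18 fell, 68.6% against 67% of all genes, of which 33.7% rose and 33.3% fell. Both siRNAs were set against the same 3 siCtrl libraries, so these counts are not independent. Replicate numbers paired siSFPQ-2 with siCtrl, and with the replicate block NCBP2 was added to the lower calls under siSFPQ-2. All genes called there went from 10293 to 10897. The siRNAs were also compared directly, siSFPQ-2 minus siSFPQ-3, and 3 members (8.57%) differed, 1 higher and 2 lower, against 14.7% of all genes, 6.06% higher and 8.61% lower. ZSWIM8 had 50.5, 38.2 and 58.0 CPM in siSFPQ-2, 28.0, 27.0 and 29.4 CPM in siSFPQ-3, and 26.2, 25.4 and 34.4 CPM in siCtrl. All 3 siSFPQ-2 libraries were above the others, and the difference between the siRNAs was 0.82 ± 0.14 on the log2 scale (adjusted p = 0.000128), in a gene with 19.0% of its exonic bases shared with other annotated genes. SRRT differed by -0.48 ± 0.13 (adjusted p = 0.0130) and RAN by -0.39 ± 0.09 (adjusted p = 0.00575), both lower with siSFPQ-2, and both calls were lost without siSFPQ-2 replicate 3 (adjusted p = 0.131 for SRRT and 0.0741 for RAN) or siSFPQ-3 replicate 1 (0.0786 and 0.0532).

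**Figure D5:**
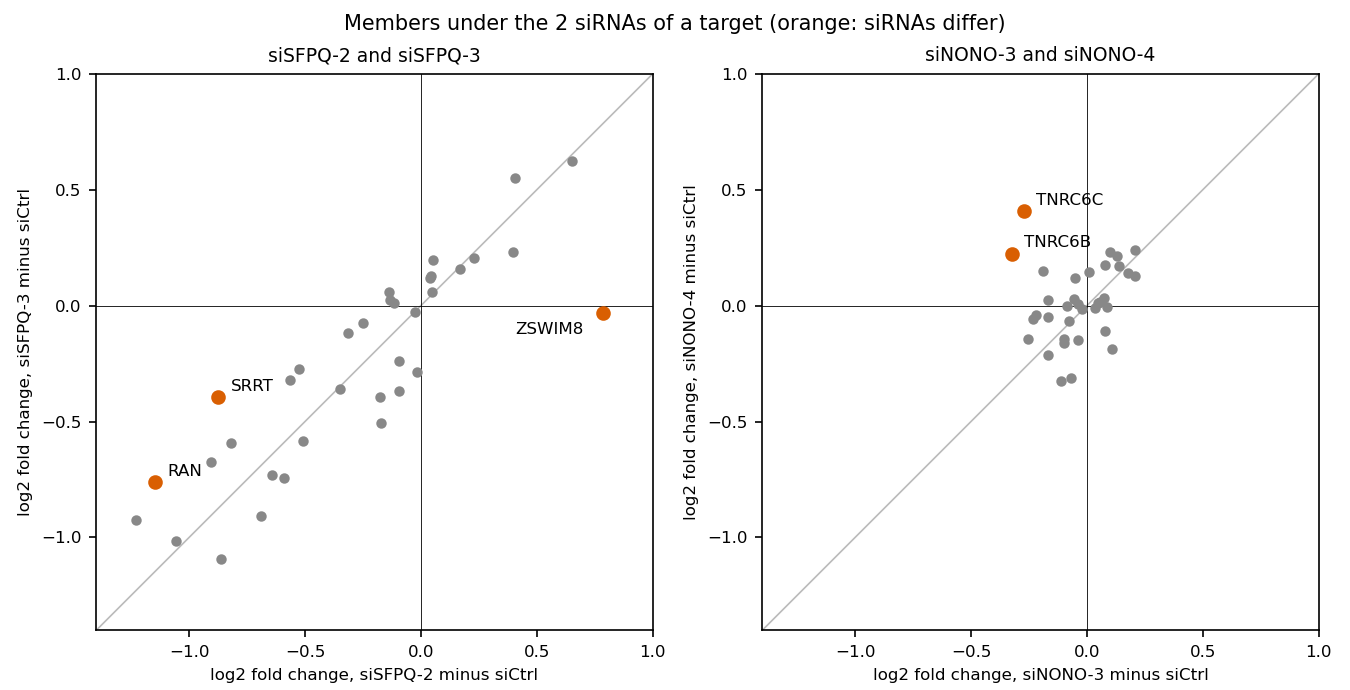
Log2 fold change of each member against siCtrl under siSFPQ-2 (x axis) and siSFPQ-3 (y axis), and under siNONO-3 (x axis) and siNONO-4 (y axis); the grey diagonal marks equal change and both axes share the siCtrl libraries. Orange points are the members whose siRNAs differed at an adjusted p under 0.05, ZSWIM8, SRRT and RAN for SFPQ and TNRC6B and TNRC6C for NONO.

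Silencing NONO left the machinery close to its control level. In siNONO against siCtrl, in the fit without a replicate block, 2 of 35 members (5.71%) fell and none rose, against 17.4% of all genes called, 9.96% lower and 7.47% higher. With the block, given in the next paragraph, 8 members were called, 3 higher and 5 lower. The calls without the block were DICER1, at -0.22 ± 0.07 on the log2 scale (adjusted p = 0.0273), and AGO1, at -0.20 ± 0.07 (adjusted p = 0.0453). Neither was called under both siRNAs. DICER1 was called with siNONO-4 alone (-0.33) but not siNONO-3, and AGO1 with siNONO-3 alone (-0.25) but not siNONO-4. DICER1 had 227, 240 and 249 CPM in siNONO-3 and 183, 210 and 224 CPM in siNONO-4, against 241, 269 and 263 CPM in siCtrl, so a siNONO-3 library overlapped siCtrl. AGO1 stood at 136 to 163 CPM in siNONO libraries, against 164 to 181 CPM in siCtrl libraries, the only member of the 35 whose libraries did not overlap, against 15.7% of all genes, 7.98% wholly higher and 7.69% wholly lower. DICER1 lost its call without siCtrl replicate 2 or 3, siNONO-3 replicate 1 or siNONO-4 replicate 1 (adjusted p = 0.0569 to 0.148), and AGO1 without any 1 of the libraries but siNONO-3 replicate 1 (adjusted p = 0.0513 to 0.186). The 95% intervals of all 35 log2 fold changes lay between -0.41 and 0.44.

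Without the replicate block, the Microprocessor and export genes were not called under siNONO. DROSHA had 130, 119 and 117 CPM in siNONO-3 and 138, 135 and 145 CPM in siNONO-4, and its log2 fold change was -0.07 ± 0.07. DGCR8 had 44.1, 47.3 and 39.8 CPM in siNONO-3 and 45.7, 41.6 and 38.4 CPM in siNONO-4, at -0.13 ± 0.10. XPO5 was at 0.16 ± 0.07 (adjusted p = 0.128) and RAN at -0.02 ± 0.08. AGO2 had 384, 417 and 436 CPM in siNONO-3 and 419, 440 and 496 CPM in siNONO-4, at 0.17 ± 0.07 (adjusted p = 0.122). TARBP2, GEMIN4 and DIS3L2 were at 0.17 ± 0.12, -0.02 ± 0.11 and 0.22 ± 0.10, none past the threshold. Replicate numbers paired the NONO and control libraries, and with the replicate block 8 members were called, 3 higher and 5 lower, against 4262 of all genes. Added were SAFB2 at 0.18 (adjusted p = 0.0481), XPO5 at 0.16 (0.0404) and AGO2 at 0.17 (0.0336) on the higher side, and ADAR at -0.15 (0.0339), AGO4 at -0.19 (0.0264) and LIMD1 at -0.20 (0.0284) on the lower side.

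The NONO siRNAs disagreed over the GW182 scaffolds. Directly compared, siNONO-3 minus siNONO-4, 2 members (5.71%) differed, both lower, against 10% of all genes, 4.71% higher and 5.31% lower. TNRC6C had 20.6, 19.0 and 18.9 CPM in siNONO-3, against 31.8, 26.9 and 34.98 CPM in siNONO-4, with siCtrl between them at 22.3 to 24.7 CPM. The difference was -0.68 ± 0.11 on the log2 scale (adjusted p = 8.91e-05), with TNRC6C 0.41 ± 0.11 above siCtrl under siNONO-4 (adjusted p = 0.0116) and -0.27 ± 0.11 under siNONO-3 (adjusted p = 0.0753). TNRC6B had 98.5, 85.6 and 88.2 CPM in siNONO-3, against 132, 129 and 137 CPM in siNONO-4, with siCtrl again between at 112 to 116 CPM. It differed by -0.55 ± 0.08 (adjusted p = 2.85e-05). NONO itself was equally low under both, differing by -0.02 ± 0.09. With siNONO-3 alone 4 members fell and none rose (11.4%, against 19.9% of all genes called, 10.9% lower and 9.02% higher), with siNONO-4 alone 1 rose and 1 fell (5.71%, against 11%, 5.1% higher and 5.94% lower). With the replicate block, 8 of 35 members differed between the siRNAs, while the number of all genes that differed went from 1590 to 2733 of 15869. The share of members was then the larger. Under siNONO-3 alone the block gave 5 of 35 members, XPO5 being added, while all genes called went from 3165 to 4579 of 15869. Under siNONO-4 alone it gave 7 of 35, SAFB2, AGO2, AGO4, TNRC6B and LIMD1 being added, while all genes called went from 1752 to 3118 of 15869.

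The knockdowns of SFPQ and NONO were also compared directly. In siSFPQ minus siNONO, 26 of 35 (74.3%) were called, near the 75.4% of all genes called in either direction, 8 higher (22.9%, against 37% of all genes) and 18 lower (51.4%, against 38.4%). AGO2 was lower by 1.20 and DIS3L2 by 1.20 on the log2 scale in siSFPQ than in siNONO, TNRC6C by 1.14, TARBP2 by 0.97 and RAN by 0.94. DROSHA differed by -0.62, DGCR8 by -0.58 and XPO5 by -0.51, while DICER1 differed by 0.53, TENT2 by 0.65 and DDX6 by 0.55. The libraries of 15 members lay wholly lower and of 5 wholly higher, against 48.8% of all genes apart in either direction, 24.2% lower and 24.6% higher. SFPQ mRNA was 0.34 ± 0.09 above siCtrl on the log2 scale in siNONO, and NONO mRNA 0.52 ± 0.07 above it in siSFPQ. In this poly(A)-selected RNA, NEAT1 was 1.06 ± 0.21 above siCtrl in siSFPQ (edgeR adjusted p = 0.000261), at 506 to 824 CPM, against 231 to 429 CPM. In siNONO NEAT1 was not called, at 0.07 ± 0.21.

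No member changed in the libraries labelled ASO-NEAT1. Against ASO-Ctrl, 0 of 35 members were called, as were 0% of all genes by edgeR, and 2 members, TNRC6B and ZSWIM8, had an unadjusted p under 0.05. DESeq2 also called 0 members. The log2 fold changes ran from -0.13 (RAN) to 0.27 (ZSWIM8), and the 95% intervals of all members lay between -0.33 and 0.51. DROSHA had 149, 143 and 132 CPM in ASO-NEAT1-1047 and 154, 138 and 132 CPM in ASO-NEAT1-1473, against 151, 143 and 135 CPM in ASO-Ctrl, and AGO2 had 347, 389 and 334 CPM and 341, 364 and 339 CPM, against 312, 332 and 340 CPM. AGO1 libraries lay wholly higher, at 168 to 186 CPM, against 160 to 167 CPM in ASO-Ctrl, the only such member, as 1.78% of all genes lay apart. The ASOs did not differ in any member, with 0% of all genes called, 2 members at an unadjusted p under 0.05 and log2 differences from -0.36 (TARBP2) to 0.21 (TENT2), ASO-NEAT1-1473 minus ASO-NEAT1-1047. NEAT1 RNA was not called lower in these libraries, and poly(A)-selected RNA gives no measure of NEAT1 RNA without a poly(A) tail. Whether NEAT1 was depleted is therefore not settled here, and the result does not speak to cells without NEAT1.

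The controls differed in DICER1. DICER1 had 194, 186 and 191 CPM in ASO-Ctrl, against 241, 269 and 263 CPM in siCtrl, with no overlap, and it was the only member called (2.86%, against 0.454% of all genes, 0.334% lower), at -0.44 ± 0.08 on the log2 scale (adjusted p = 0.00627). The call missed the threshold without siCtrl replicate 2 or 3 or ASO-Ctrl replicate 2 (adjusted p = 0.0539 to 0.104). DICER1 was at 180 to 198 CPM in the libraries labelled ASO-NEAT1.

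Of 70 further genes of microRNA biogenesis, decay and silencing, 69 were tested. In siSFPQ against siCtrl 25 rose and 22 fell (68.1%), near the 70.4% of all genes. By direction, 36.2% rose, against 34.7% of all genes, and 31.9% fell, against 35.8%. Of the 69, 9 were called with more than a 2-fold change, against 32.6% of all genes, so such changes were less frequent here than over all genes. The uridyl transferase TUT7, which tails let-7 precursors, rose to 112 ± 7.01 CPM in siSFPQ-2 and 99.3 ± 8.46 in siSFPQ-3, against 42.3 ± 1.01 in siCtrl (SD, n = 3 each), a log2 fold change of 1.32 ± 0.08. LIN28B, which recruits such transferases to pre-let-7, fell to 142 ± 22.6 and 125 ± 8.79 CPM, against 422 ± 39.0 in siCtrl (-1.66 ± 0.08). The exonuclease ERI1 rose to 332 ± 53.4 and 317 ± 33.0 CPM, against 99.5 ± 19.9 in siCtrl (1.71 ± 0.17), and the ribonuclease ZC3H12A, with 101 reads in all of siCtrl, rose by 1.72 ± 0.22. The nuclease SND1 fell by 1.25 ± 0.08, the HSP90 cochaperone FKBP4 by 1.31 ± 0.08, the deadenylase subunit PAN2 by 1.28 ± 0.18, the RNA-binding protein QKI by 1.15 ± 0.06 and the ubiquitin ligase scaffold CUL3 by 1.06 ± 0.06 on the log2 scale. In siNONO against siCtrl 12 of the 69 rose and 1 fell (18.8%), against 17.4% of all genes. By direction, 17.4% of the 69 rose, against 7.47% of all genes, and 1.45% fell, against 9.96%. None were called with more than a 2-fold change, against 3.26% of all genes, and none were called in the libraries labelled ASO-NEAT1.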

How the data were processed

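The deposited files hold whole-number counts per gene for each of 24 libraries, made by the authors with featureCounts, version 2.0.3 per the file headers, on hg38 gene models. Per the submitters' processing notes, cutadapt 4.2, STAR 2.7.5a and DESeq2 1.38.1 were also used. For the annotation release, the strand setting and multiply mapped reads, the choice is not given in the sources used here. No row without a gene was present, and no pair of libraries was identical.

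From these counts, edgeR 4.0.16 (R 4.3.3) quasi-likelihood tests were computed in a single fit over all 8 groups, with TMM factors of 0.949 to 1.045, the filterByExpr filter (minimum count 10) and Benjamini-Hochberg adjustment over 15869 genes, called at 0.05. Effects of the siRNAs or ASOs of a target were averaged. Standard errors follow from the F statistic. Alternatives were DESeq2 1.42.0, other scaling factors, no filter, fewer libraries, a replicate block and leaving out each library.

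Replicate numbers paired libraries where the deviations of every same-numbered pair correlated above 0.1, which held for 9 of 9 pairs in the NONO and 9 of 9 in the ASO comparisons and for 5 of 9 in the SFPQ comparison, where the 3 pairs of siSFPQ-2 with siCtrl passed and those of siSFPQ-3 with siCtrl did not all pass. Members called in the SFPQ or NONO comparison with an absolute log2 fold change of at least 0.75, together with DROSHA, DGCR8, XPO5, DICER1 and AGO2, are given by library, and further pathway genes are named at an absolute log2 fold change of at least 1. TENT2, DDX6, ZSWIM8, TNRC6B and AGO1 values were added after they were seen. Members and lists were chosen with earlier results of these data known. A further gene of the marker list is not reported here.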

Additional observations from a re-analysis of the deposited data

Results flagged for a closer look

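In 5 members the siRNAs against a single target differed from each other by the direct test, in the fit without a replicate block. These were 8.57% of members for SFPQ, against 14.7% of all genes, and 5.71% for NONO, against 10%. In that fit, members thus differed no more often than genes at large. The replicate block gave 11 members and 3416 of 15869 genes between siSFPQ-2 and siSFPQ-3, whose same-numbered libraries did not all pair. Between siNONO-3 and siNONO-4, whose same-numbered libraries did pair, it gave 8 members and 2733 of 15869 genes. The share of members was then larger than that of all genes for both targets. For SFPQ, siSFPQ-2 minus siSFPQ-3, the log2 difference was 0.82 for ZSWIM8, -0.48 for SRRT and -0.39 for RAN. For NONO, siNONO-3 minus siNONO-4, it was -0.55 for TNRC6B and -0.68 for TNRC6C, with the siRNAs on opposite sides of siCtrl for both genes. The targeted mRNA did not differ between the siRNAs, at -0.11 ± 0.11 for SFPQ and -0.02 ± 0.09 for NONO on the log2 scale. A cause was not tested for any of these.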

How the results depend on the processing

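In siSFPQ against siCtrl, 19 of the 25 called members kept their call in all 15 alternatives, and no called value changed sign in any comparison. Calls lost somewhere were KHSRP, ADAR, AGO4, TNRC6A, MOV10 and ZSWIM8, the last without siCtrl replicate 1 (adjusted p = 0.0519). The member count was 24 to 27 under the other settings and 22 to 26 leaving out single libraries. The replicate block, whose numbers paired siSFPQ-2 but not siSFPQ-3 with siCtrl, gave 27 members and 11710 genes there, against 25 and 11177, and 11 members and 3416 genes between siSFPQ-2 and siSFPQ-3, against 3 and 2328, while leaving out a library gave 1 (without siSFPQ-2 replicate 3) to 4. For NONO the 2 calls became 1 without the low-count filter, 8 with the block (4262 genes against 2767) and 0 to 1 leaving out a library, with 0 without siCtrl replicate 2 or siNONO-4 replicate 1. Between siNONO-3 and siNONO-4 the block gave 8 members against 2, and 2733 genes against 1590. Between ASO-Ctrl and siCtrl it gave 2 members against 1, and 351 genes against 72, and leaving out a library gave 0 (siCtrl replicates 2 and 3, ASO-Ctrl replicate 2) to 1. The block changed no call of a member in the libraries labelled ASO-NEAT1. Upper quartile scaling moved the genes called between siSFPQ-2 and siSFPQ-3 to 1261 higher and 1193 lower, against 962 and 1366. The causes were not tested. Depth limits TARBP2, TNRC6C and DIS3L2, with as few as 28, 38 and 59 reads in a library.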
